A study of Mus musculus with 12 samples.

Results

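Metallothioneins are small cysteine-rich proteins that bind zinc and copper, and zinc transporters carry zinc across membranes. The account here covers 8 genes of this system in aged mice exposed to heat: the metallothionein genes Mt1, Mt2 and Mt3, the zinc-sensing transcription factor gene Mtf1, the exporter genes Slc30a1 and Slc30a10, and the importer genes Slc39a4 and Slc39a14. They were found by symbol in the deposited count table, and all 8 were present among its 25239 genes. The genes were chosen by their heat stress values in these same libraries, so those values are given as a description. Where members past a threshold are counted in the heat stress comparisons, the count stands beside the share of all genes and supports nothing.

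Wild type male C57BL6/J mice aged 24 months were kept as controls or exposed to 40 ± 0.5 °C at a relative humidity of 60 ± 5% for 3 hours per day over 15 days. Brain and liver were harvested, and messenger RNA was enriched and sequenced from 3 control and 3 heat stress libraries per tissue, 12 in all. No allele or drug was part of any group, and the methods give 3 animals per group, which would put both tissues of the same 3 mice in a group. Which library numbers belong to 1 mouse is not given in the sources used here. The p-values below measure the spread between these libraries.

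Total counts ranged from 10466198 to 15609040 per library. All 6 hepatocyte markers were read in every liver library and all 5 neuron markers in every brain library. Summed skeletal muscle markers stood at 310.3 CPM in liver control replicate 1 and 1854 CPM in liver heat stress replicate 2, against 0.93 to 6.23 CPM in the other 4 liver libraries. Liver control replicate 1 also had the highest summed neuron and oligodendrocyte markers of the liver libraries, at 28.3 and 48.1 CPM. Each member's liver value is therefore also given without those libraries. In the column names, liver control replicate 2 and liver heat stress replicates 1 and 3 carry a suffix, 2nd, that no source used here explains.

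When free zinc rises in a cell, MTF1 binds metal response elements in front of its target genes, and transcription of Mt1, Mt2 and Slc30a1 increases. Mt1 and Mt2 also respond to glucocorticoids, to IL-6 through STAT3 and to oxidative stress, and in liver they belong to the acute phase response. Mt3 is largely a gene of the nervous system. SLC30A1 exports zinc at the plasma membrane, SLC30A10 exports mainly manganese, SLC39A14 imports manganese, zinc and iron and is abundant in hepatocytes, and SLC39A4 is best known as the zinc importer of the intestine.

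The coding sequences of the 3 metallothioneins are shown because they are the feature that joins the family and because similar genes can exchange reads. All 3 lie on chromosome 8 within one cluster of GRCm38: Mt3 at chr8:94152607-94154146, Mt2 at chr8:94172664-94173568 and Mt1 at chr8:94179082-94180327, each on the plus strand. Cysteine codons are in capitals, and the sequences come from GENCODE M21 transcripts.
Mt1: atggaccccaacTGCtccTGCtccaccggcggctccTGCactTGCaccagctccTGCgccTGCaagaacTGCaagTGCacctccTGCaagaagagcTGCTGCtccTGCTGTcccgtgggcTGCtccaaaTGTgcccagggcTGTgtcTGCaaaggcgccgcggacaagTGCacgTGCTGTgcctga
Mt2: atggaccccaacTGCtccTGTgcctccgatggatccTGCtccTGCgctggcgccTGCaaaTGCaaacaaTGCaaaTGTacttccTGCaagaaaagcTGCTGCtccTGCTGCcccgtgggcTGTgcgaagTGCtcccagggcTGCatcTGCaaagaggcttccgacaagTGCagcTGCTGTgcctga
Mt3: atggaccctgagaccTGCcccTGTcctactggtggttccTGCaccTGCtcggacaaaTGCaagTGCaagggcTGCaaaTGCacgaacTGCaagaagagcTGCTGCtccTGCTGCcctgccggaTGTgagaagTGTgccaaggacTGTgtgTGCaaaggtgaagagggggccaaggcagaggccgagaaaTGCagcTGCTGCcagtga
Each holds 20 cysteine codons, which are 32.8% of the 61 codons before the stop in Mt1 and Mt2 and 29.4% of the 68 in Mt3. Mt1 and Mt2 are identical at 148 of 186 aligned bases, or 79.6%. Mt3 is identical to Mt1 at 66.2% and to Mt2 at 67.6% of 207 aligned positions. The longest run that Mt1 and Mt2 share is 20 bases, also over the whole transcripts of 549 and 511 bases, and the longest run shared by Mt1 and Mt3 is 27 bases. The methods give a read length before trimming that is longer than either run, and exchange of reads was not tested.

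Since MTF1 binds metal response elements, the 250 bases before the RefSeq start were searched for them. These bases are shown for Mt1, Mt2 and Slc30a10, the members with the largest liver differences. They are from the plus strand of GRCm38.p6, at chr8:94178839-94179088 for Mt1, chr8:94172368-94172617 for Mt2 and chr1:185454598-185454847 for Slc30a10. Capitals mark matches, on either strand, to the core of the element, searched as TGCACNC or TGCGCNC.
Mt1: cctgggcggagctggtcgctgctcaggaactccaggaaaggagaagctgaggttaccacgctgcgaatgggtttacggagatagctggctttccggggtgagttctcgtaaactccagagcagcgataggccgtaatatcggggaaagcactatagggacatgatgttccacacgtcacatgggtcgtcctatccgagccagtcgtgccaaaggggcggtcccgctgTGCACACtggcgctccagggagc
Mt2: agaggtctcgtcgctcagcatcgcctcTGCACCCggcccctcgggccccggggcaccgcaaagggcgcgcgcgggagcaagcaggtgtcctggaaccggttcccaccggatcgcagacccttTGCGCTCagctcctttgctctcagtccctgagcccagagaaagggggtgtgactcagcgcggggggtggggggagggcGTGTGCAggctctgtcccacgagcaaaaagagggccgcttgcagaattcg
Slc30a10: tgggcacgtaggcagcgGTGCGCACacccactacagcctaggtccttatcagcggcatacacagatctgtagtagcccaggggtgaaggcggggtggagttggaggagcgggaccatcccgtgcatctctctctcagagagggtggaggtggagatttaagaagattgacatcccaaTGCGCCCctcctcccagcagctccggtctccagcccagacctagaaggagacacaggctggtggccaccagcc
Mt1 had 1 match in these 250 bases, which began 23 bases before the start, and Mt2 had 3, beginning 223, 128 and 50 bases before it. Slc30a10 had 3, at 233, 232 and 73 bases, of which the first pair overlap on opposite strands. Among 32851 mouse promoters, 21.4% held at least 1 match, 5.17% at least 2 and 1.26% at least 3. Slc30a1 had 1 match, and Mt3 and Mtf1 had none in this window. Just after the RefSeq start of Mt1, at chr8:94179091-94179115, a further pair lay 25 bases from end to end.
Mt1 pair: TGCACTCcgcccgaaaagTGCGCTC
With the 50 bases after the start included, Mt2 had 4 matches, Mt1 3, Slc30a10 3, Slc30a1 2 and Mt3 1, and 1.97% of promoters had at least 3. The antioxidant element, searched as TGACNNNGC on both strands, was found once each before Mt2 and Slc30a1 and in 10.2% of all promoters. The STAT element, searched as TTCNNNGAA on both strands, was found in none of the 6 member promoters with a sequence, and in 7.02% of all promoters. The counts hold for the RefSeq start used, since bases further downstream were not searched, and the genes are not ranked by them. A match is a stretch of letters, and binding was not measured. Slc39a4 and Slc39a14 had no entry.

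The first comparison asked how the members differ between the tissues of control mice. The members were not chosen on this contrast, although its control libraries are also the control side of the heat stress values on which they were chosen. Metallothionein transcripts were higher in brain, and those of the 4 transporters were higher in liver. In CPM, a library's counts scaled to a common total, after TMM normalization of the 6 control libraries, Mt1 averaged 117 ± 18.1 (SD, n = 3) in brain and 8.55 ± 2.80 in liver. Mt2 averaged 69.5 ± 12.6 in brain and 3.19 ± 0.22 in liver. The log2 difference, liver minus brain, was -3.77 ± 0.27 (SE) for Mt1, with an adjusted p = 1.04e-06 in edgeR's quasi-likelihood test, and -4.44 ± 0.23 for Mt2, with an adjusted p = 1.74e-07.

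Mt3 showed the widest gap. Its counts were 3703, 4569 and 3571 in the control brain libraries and 14, 0 and 0 in the control liver libraries, so the groups did not overlap. Against a floor of 3 counts per library, its brain mean of 214 CPM was at least 535-fold higher than the level in liver control replicates 2 and 3. The 14 counts came from replicate 1, the library with the most neuron and oligodendrocyte transcripts, and their part in the Mt3 count was not tested.

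4 of the transporters lay the other way in edgeR's test. Slc39a14 averaged 193 ± 19.3 CPM in control liver and 21.6 ± 3.01 in control brain, a log2 difference of 3.16 ± 0.20 with an adjusted p = 5.65e-07. Slc39a4 averaged 18.3 ± 9.72 CPM against 1.61 ± 0.65, with a log2 difference of 3.51 ± 0.47 and an adjusted p = 8.41e-05. Slc30a10 differed by 2.11 ± 0.18 on the log2 scale, from 16.3 to 70.6 CPM, with an adjusted p = 3.87e-06. Slc30a1 differed by 1.25 ± 0.18, from 26.7 to 63.6 CPM, with an adjusted p = 0.00014. Mtf1 averaged 21.5 ± 2.72 CPM in brain and 19.3 ± 1.03 in liver, and its log2 difference of -0.15 ± 0.18 did not pass (adjusted p = 0.436, edgeR).

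In all, 7 of the 8 members passed the threshold, an adjusted p-value under 0.05 with a log2 difference past 1, and 4 of them were higher and 3 lower in liver. Of the 15213 genes tested, 64.5% passed, 27.8% higher and 36.7% lower in liver, so tissue differences of this kind were common. The median of all genes was -0.20, and between -0.12 and -0.44 under the other scalings and filters, a shift much smaller than the differences of the 7 members. The same 7 members passed in every alternative that was run. In whole tissue, fewer cells of a type and less RNA per cell cannot be told apart.

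Of the other 21 zinc genes, 17 could be tested between the control tissues and 12 passed, 5 higher in liver and 7 lower. Higher in liver were Slc39a8, an importer of zinc and manganese (log2 difference 3.70), Slc39a1 (1.90), Slc39a11 (1.90), Slc30a6 (1.13) and Slc30a7 (1.03). Lower in liver were Slc39a12 (-8.58) and Slc30a3, which loads zinc into synaptic vesicles (-7.05), followed by Slc39a10 (-4.15), Slc39a6 (-3.16), Slc39a3 (-1.75), Slc39a2 (-1.50) and Slc30a4 (-1.37). Their adjusted p-values in edgeR's test ranged from 2.6e-07 for Slc39a12 to 0.00861 for Slc39a2. The call of Slc30a7 was lost in 8 of 13 alternatives, where its log2 difference fell under 1.

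Levels of different genes were compared per kilobase, with all 12 libraries normalized together. With the length of the first-numbered GENCODE transcript of each gene, control brain held Mt3 at 400.4 ± 93.7 CPM per kb (SD, n = 3), Mt1 at 214 ± 32.8 and Mt2 at 136 ± 24.6. These 3 did not overlap, and the next member, Slc39a14, was at 10.3 ± 1.45. Slc30a1 followed at 5.11 ± 0.77, then Mtf1 and Slc30a10 at 2.82 and 2.81, which overlapped, and Slc39a4 at 0.78 ± 0.32. The order depends on the length used. With the union of all annotated exons, which is 1246 bp for Mt1 because 1 of its transcripts keeps the introns, Mt2 stood at 119 and Mt1 at 94.3 CPM per kb in control brain, with overlapping values. Slc39a14, with 10550 bp of exons, then stood at 2.05, below Slc30a10 and overlapping Mtf1. Which transcripts were counted is not given in the sources used here.

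In control liver, on the same transcript lengths, Slc39a14 led at 91.7 ± 9.20 CPM per kb. Mt1 at 15.5, Slc30a1 at 12.1 and Slc30a10 at 12.1 overlapped, Slc39a4 stood at 8.84, Mt2 at 6.23 and Mtf1 at 2.52. In heat stress liver Slc39a14 and Mt1 led, and Mt1 no longer overlapped Slc30a1 or Slc30a10. Slc39a14 was at 97.2 ± 12.4 and Mt1 at 77.5 ± 21.4 CPM per kb, and the 2 genes overlapped. Mt2 followed at 24.6 ± 10.2, while in control liver its mean was below that of Slc39a4, with overlapping values. This order depends on the length too. With the union of exons, Slc39a14 led control liver at 18.2, ahead of Slc30a1 and Slc30a10, both at 12.1, and Mt1 at 6.83. In heat stress liver Mt1 then led at 34.1, followed by Mt2 at 21.4 and Slc39a14 at 19.3, where Mt1 overlapped Mt2 and Mt2 overlapped Slc39a14. On either length, no heat stress liver library reached the Mt1 or Mt2 level of any control brain library.

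**Figure D1:**
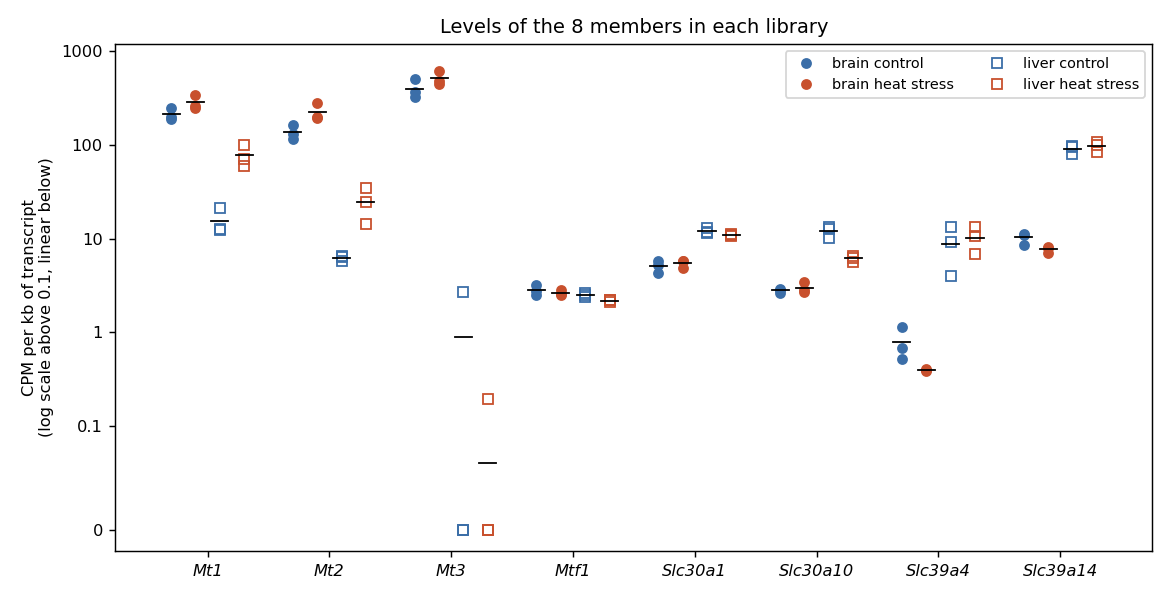
Level of each of the 8 genes in every library, in CPM per kb of its first-numbered transcript, with brain as filled circles, liver as open squares, control in blue, heat stress in red and the group mean as a bar. Mt1, Mt2 and Mt3 sat above 100 in every brain library, while Slc39a14 led in control liver and Mt3 was at 0 in 4 of 6 liver libraries.

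The second comparison asked how the members differed between heat stress and control liver. Mt1 and Mt2 were higher in every heat stress library than in any control library, and Slc30a10 was lower in each of them. From here on, values are CPM after TMM normalization within a tissue. Mt1 was at 7.36, 4.81 and 4.94 CPM in control replicates 1 to 3 and at 27.5, 21.9 and 38.7 in heat stress replicates 1 to 3, from counts of 114, 59 and 53 and of 369, 314 and 491. The lowest heat stress library was well above the highest control library. The log2 fold change was 2.35 ± 0.27 (SE), from 5.70 ± 1.44 to 29.4 ± 8.58 (SD, n = 3 each).

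Mt2 was at 2.07, 2.36 and 2.05 CPM in the control and 8.86, 4.88 and 12.4 CPM in the heat stress libraries. Its counts were 32, 29 and 22 against 119, 70 and 157. Both genes were highest in heat stress replicate 3 and lowest, among the heat stress libraries, in replicate 2, the library rich in muscle transcripts. The log2 fold change of Mt2 was 2.00 ± 0.35. Without the pair of libraries with muscle transcripts, that of Mt1 was 2.75 ± 0.26 and that of Mt2 2.24 ± 0.32. Within the libraries that carry the suffix 2nd (1 control, 2 heat stress) the log2 ratio of the means was 2.78 for Mt1 and 2.17 for Mt2, and within those without it (2 control, 1 heat stress) it was 1.83 and 1.25.

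Immune cell markers were also read: summed T cell markers lay apart between these groups, and summed Kupffer cell markers overlapped. The summed level of 5 T cell markers was 2.39 to 5.41 CPM in the control and 6.55 to 10.1 CPM in the heat stress libraries, all 5 had positive log2 fold changes, with a median of 0.86, and 2 had an unadjusted p under 0.05, beside 5.84% of all liver genes. The 5 Kupffer cell markers, of the resident macrophages of liver, summed to 99.0 to 184 and 136 to 259 CPM and overlapped, again with 5 of 5 positive and a median of 0.36. Of these, Marco, a scavenger receptor, was at 5.54 ± 2.96 CPM in the control and 19.4 ± 13.8 CPM in the heat stress libraries, with groups apart, a log2 fold change of 1.83 ± 0.60 and the only unadjusted p under 0.05 of that list (adjusted p = 0.743 in edgeR). The lowest Kupffer sum of the heat stress libraries, 136 CPM, was in replicate 3, where Mt1 and Mt2 were highest. No marker of either list was at 0 in a liver library. The part of these cells in the values of Mt1, Mt2 and Slc30a10 was not tested.

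Mt3 was not tested in liver, where its 3 control libraries had 14, 0 and 0 counts and its heat stress libraries 0, 1 and 0.

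Slc30a10 went the other way. It was at 49.3, 52.4 and 41.2 CPM in the control libraries and at 22.7, 24.5 and 26.8 CPM in the heat stress libraries. The groups were far apart, and the heat stress libraries lay close together. From 47.6 ± 5.81 to 24.7 ± 2.06 CPM, its log2 fold change was -0.95 ± 0.17, with -1.08 and -0.88 within the libraries with and without the suffix, and it was -0.93 ± 0.20 without the pair with muscle transcripts. Gm2061, a noncoding gene on the opposite strand that overlaps 533 bp of its exons, was read 27, 24 and 18 times in the control libraries and 12, 5 and 14 times after heat stress. The libraries were made with a stranded kit, but whether strand was used in counting is not given in the sources used here. If it was not, reads of the pair cannot be told apart.

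The remaining transporters and Mtf1 differed little. Slc30a1, the other exporter, was at 42.9 ± 0.75 CPM in control and 39.5 ± 0.47 in heat stress liver, a log2 fold change of -0.12 ± 0.15. Mtf1 was at 13.0 ± 0.36 and 11.4 ± 0.34 CPM, a log2 fold change of -0.20 ± 0.17. For both genes every heat stress library was below every control library, by a small margin. Mtf1 shares 721 bp of exons with 1110065P20Rik and Slc30a1 shares 468 bp with 1700034H15Rik, both on the opposite strand. In liver, 1110065P20Rik was read 361, 456 and 224 times in control and 261, 192 and 303 times in heat stress libraries. Mtf1 itself had 197, 159 and 144 counts and 149, 162 and 149 counts. In brain, 1110065P20Rik was read 442, 487 and 403 times in control and 522, 611 and 543 times in heat stress libraries. Slc39a14 was at 130.4 ± 9.89 and 140.2 ± 17.7 CPM, and its log2 fold change was 0.10 ± 0.18. Without the pair of libraries with muscle transcripts, the log2 fold change was -0.13 ± 0.19 for Slc30a1, -0.22 ± 0.24 for Mtf1 and 0.074 ± 0.20 for Slc39a14. With 1 library left out, that of Slc39a14 ran from 0.00082, without heat stress replicate 3, to 0.18, without heat stress replicate 1, and was 0.054 without control replicate 2 and 0.16 without control replicate 3.

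Slc39a4 was at 17.3, 5.87 and 13.2 CPM in control libraries and 9.83, 18.5 and 15.3 CPM after heat stress, and the groups overlapped. In each group its highest value was in the library with muscle transcripts. The log2 fold change was 0.26 ± 0.36, and it was 0.38 ± 0.37 without both libraries with muscle transcripts. With 1 library left out it was -0.075 without control replicate 2, 0.044 without heat stress replicate 2, 0.45 without heat stress replicate 1 and 0.60 without control replicate 1. Within the libraries with and without the suffix the log2 ratio of the means was 1.10 and 0.27, and with the suffix as a term in the fit the log2 fold change was 0.65 ± 0.28.

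**Figure D2:**
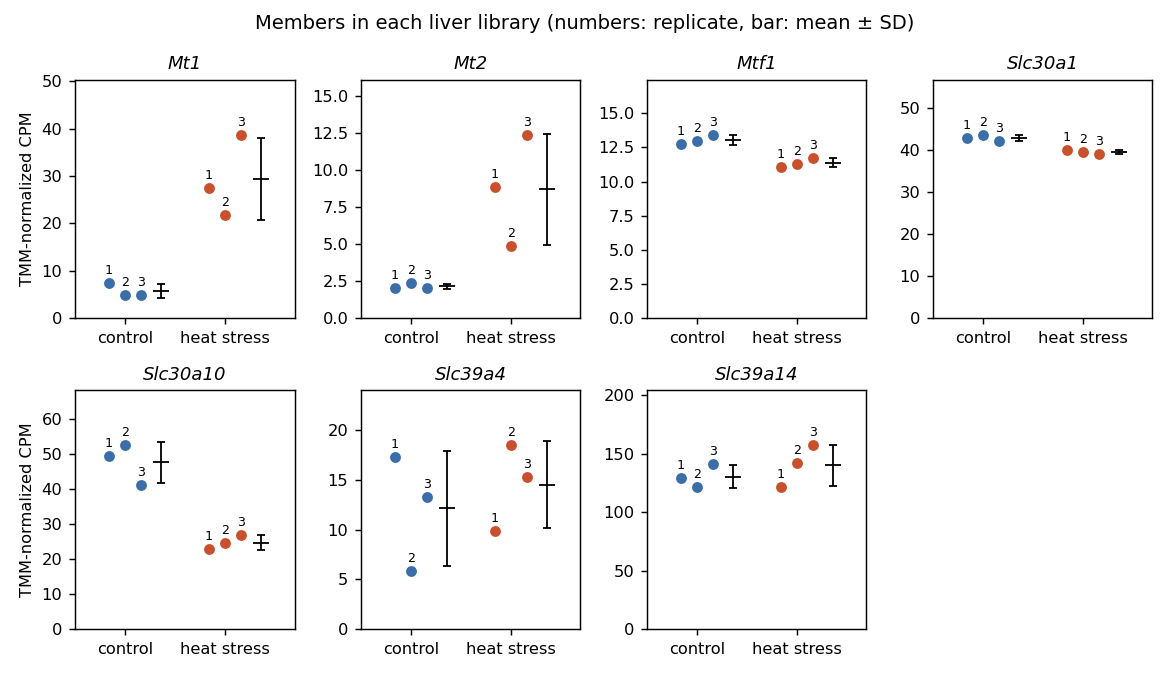
TMM-normalized CPM of the 7 tested members in each liver library, control in blue and heat stress in red, numbered by replicate, with mean ± SD as a black bar. Mt1 and Mt2 lie apart upward and Slc30a10 apart downward, while Slc39a4 and Slc39a14 overlap.

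None of the 7 members tested in liver passed the threshold by edgeR, and neither did any of the 12296 genes (0%). At an unadjusted p under 0.05, 3 members passed, Mt1, Mt2 and Slc30a10, beside 5.84% of all genes. By DESeq2, Mt1 and Mt2 passed the threshold, beside 0.343% of the genes with an adjusted p-value, and 3.51% of genes had an unadjusted p under 0.05. Slc30a10 had an adjusted p-value under 0.05 in DESeq2 but did not pass, since its log2 fold change was -0.97. Every heat stress library was above every control library for 2 members, beside 5.38% of genes, and below for 3, beside 5.73%. Since the members were chosen on these values, nothing is read from these counts or from the result of a single member. The call depended on the libraries: Mt1 passed in edgeR without liver control replicate 1 or without liver heat stress replicate 2, and both Mt1 and Mt2 passed without the pair.

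In brain, all 3 metallothioneins had higher means in heat stress libraries, and the importers Slc39a4 and Slc39a14 had lower ones. On the log2 scale, the differences of Mt1 and Mt2 were smaller than in liver. Mt2 was at 86.2, 123 and 96.4 CPM in control replicates 1 to 3 and at 145, 212 and 149 CPM in heat stress replicates 1 to 3. The groups did not overlap. From 102 ± 19.0 to 169 ± 37.9 CPM, the log2 fold change was 0.73 ± 0.18 (SE).

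Mt1 was at 161, 203 and 151 CPM in control libraries and 202, 279.7 and 212 CPM after heat stress. Mt3 was at 254, 399 and 289 CPM in control libraries and 355, 490.2 and 379 CPM after heat stress. For both, control replicate 2 overlapped the heat stress libraries. The log2 fold changes were 0.43 ± 0.17 for Mt1 and 0.38 ± 0.19 for Mt3. Both rested on single libraries: without heat stress replicate 2 they were 0.27 and 0.23, and for Mt3 the value was 0.25 without control replicate 1 and 0.58 without control replicate 2. That of Mt2 ran from 0.53 to 0.88 with 1 library left out. Replicate 2 was the highest library of its group for all 3 metallothioneins in both control and heat stress brain.

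Short genes as a whole were higher in heat stress brain. Among the 997 tested genes with under 1500 bp of exons, which include Mt1, Mt2 and Mt3, the median log2 fold change was 0.29 and 81.4% were positive. The median was 0.10 for 1500 to under 3000 bp, -0.0073 for 3000 to under 6000 bp and -0.11 for the 4698 genes of 6000 bp or more, of which 34.2% were positive. The log2 fold changes of Mt1 and Mt3 lay within 1 SE of the short-gene median and that of Mt2 lay above it by more than 2 SE. Without heat stress replicate 2 the short-gene median was 0.21, beside 0.27 for Mt1, 0.53 for Mt2 and 0.23 for Mt3 in the same fit. In liver the medians of the same classes ran from -0.018 to 0.047, and Mt1 and Mt2 stood at 2.35 and 2.00 against 0.026 for the 863 short genes. Slc39a14, with 10550 bp of exons, stood at -0.40 in brain against -0.11 for its class, or against 0.10 for the class of its first-numbered transcript of 2098 bases. The first-numbered transcripts of Mt1, Mt2 and Mt3 are also under 1500 bases. What part of the metallothionein difference in brain goes with length was not tested.

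**Figure D3:**
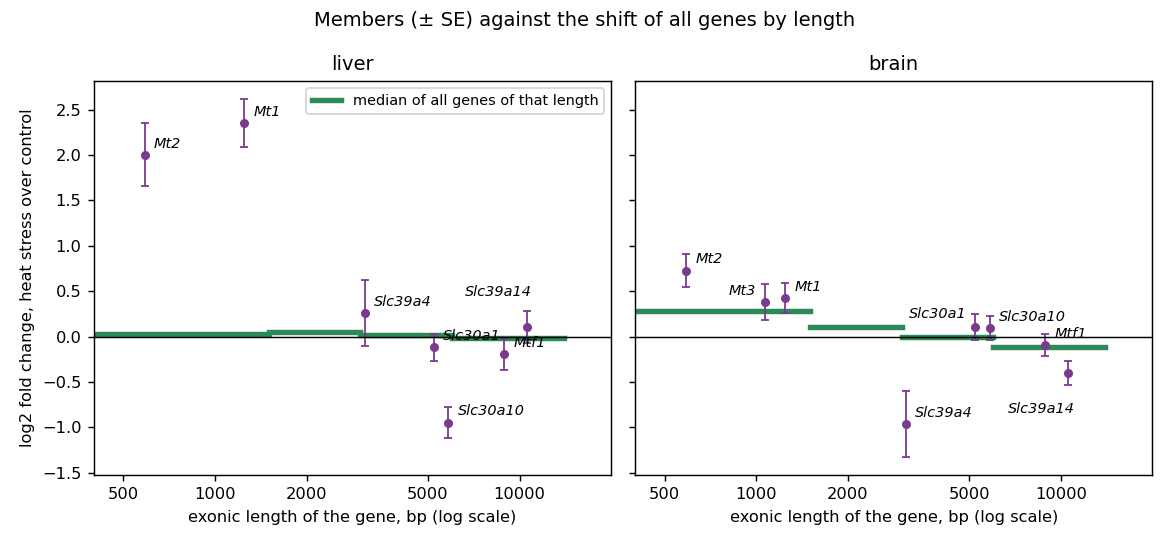
Log2 fold change of each tested member (purple, ± SE of the edgeR fit) against the exonic length of its gene on a log axis, in liver and brain, with the median of all tested genes of each length class in green. The green line runs from 0.29 down to -0.11 across lengths in brain and stays near 0 in liver.

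Slc39a4 was low in brain, at 23, 24 and 42 counts in the control libraries and 13 in each heat stress library. In CPM it averaged 2.36 ± 0.94 and 1.20 ± 0.032, the groups did not overlap, and the log2 fold change was -0.96 ± 0.36. Control replicate 3 was the highest, and without it the log2 fold change was -0.60. Slc39a14 was at 34.6, 26.7 and 33.4 CPM in control libraries and 21.9, 25.3 and 24.6 CPM after heat stress. Its groups were also apart, with a log2 fold change of -0.40 ± 0.13.

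Markers of other cells moved with those groups. The summed level of 5 endothelial markers was 103 to 206 CPM in control and 66.8 to 85.4 CPM in heat stress brain, and that of 7 choroid plexus markers was 89.7 to 165 and 33.8 to 71.0 CPM. In both lists each marker had a negative log2 fold change, 5 of 5 and 5 of 7 with an unadjusted p under 0.05, beside 20.1% of all brain genes, and 1 of each list passed the threshold by DESeq2, beside 0.125% of genes, and no marker was at 0 in any brain library. The part of these cells in the values of Slc39a4 and Slc39a14 was not tested. The 7 astrocyte markers, whose cells are known to make Mt1 and Mt2, summed to 5175 to 7243 CPM in control and 4919 to 5991 CPM in heat stress brain and overlapped. Of these markers 6 of 7 had negative log2 fold changes, with a median of -0.20, and 1, Aldh1l1 at -0.50, had an unadjusted p under 0.05 and groups apart downward. Their part in the metallothionein values was not tested.

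The other members overlapped between the groups in brain. Slc30a10 was at 23.9 ± 1.15 and 25.5 ± 3.35 CPM (log2 fold change 0.094 ± 0.13), Slc30a1 at 39.2 ± 6.17 and 42.1 ± 4.27 CPM (0.11 ± 0.14) and Mtf1 at 31.4 ± 3.72 and 29.5 ± 2.02 CPM (-0.092 ± 0.12). Leaving out a single library turned the sign of each of these 3.

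**Figure D4:**
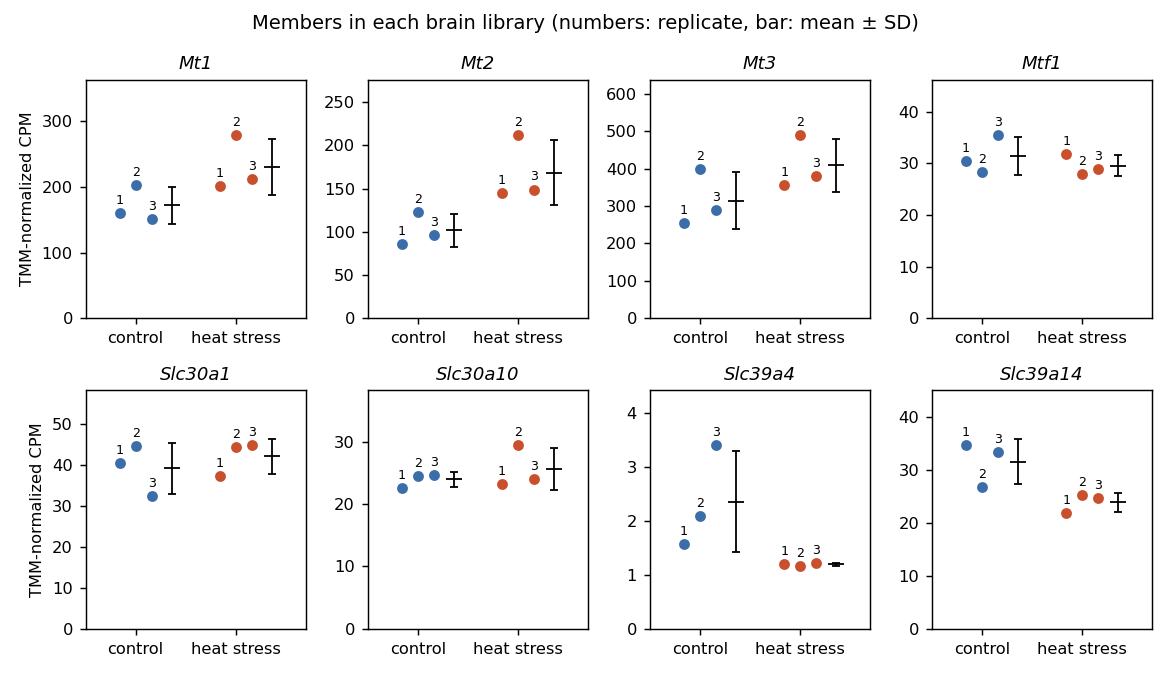
TMM-normalized CPM of the 8 members in each brain library, drawn as for liver. Mt2 lies apart upward, Slc39a4 and Slc39a14 apart downward, and replicate 2 is the highest library of each group for Mt1, Mt2 and Mt3.

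No member and no gene of the 14806 tested in brain passed the threshold by edgeR (0%), and no member did by DESeq2 (0.125% of genes), where 5 members had an unadjusted p under 0.05, beside 13.8% of genes. At an unadjusted p under 0.05, 4 members passed, Mt1 and Mt2 upward and Slc39a4 and Slc39a14 downward, beside 20.1% of all genes. With 1 library left out that count ran from 1, without control replicate 3, to 5, without control replicate 2, and it was 2 without control replicate 1, heat stress replicate 1 or heat stress replicate 2 and with all 12 libraries in one fit. Groups apart upward held 1 member beside 12.9% of genes, and groups apart downward 2 members beside 11.98%. The background of separated genes was higher here than in liver, and nothing is read from the member counts.

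A fit of all 4 groups gave the difference between the tissues in their heat stress effect, liver minus brain, on the log2 scale. It was 1.89 ± 0.35 (SE) for Mt1, 1.25 ± 0.40 for Mt2 and -1.06 ± 0.22 for Slc30a10. For Slc39a4 it was 1.18 ± 0.62, for Slc39a14 0.49 ± 0.23, for Slc30a1 -0.24 ± 0.21 and for Mtf1 -0.12 ± 0.20. For Mt3 no value is given, since its liver side rests on the counts of 14, 0 and 0 against 0, 1 and 0. No member passed the threshold by edgeR. An unadjusted p under 0.05 was found for 5 members, Mt3 among them, beside 9.64% of all genes, and Mt1 and Slc30a10 passed by DESeq2, beside 0.337% of genes. The members were chosen on the heat stress values that make up this difference, so nothing is read from these counts. Of 15824 genes, 1 passed by edgeR (0.00632%), and none did with treatment and replicate number as a block across the tissues. That gene was Tfrc, the transferrin receptor, at -1.84 ± 0.24, which is named here after its value was seen.

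Mt1 and Mt2 kept different proportions in the tissues. Mt2 made up 34.9%, 37.7% and 38.9% of the summed Mt1 and Mt2 counts in control brain against 41.8%, 43.1% and 41.3% after heat stress. The groups did not overlap, and their means differed by 4.90 percentage points. In liver the share was 21.9%, 33.0% and 29.3% in the control libraries against 24.4%, 18.2% and 24.2% after heat stress, and the groups overlapped. Control liver rested on 75 to 146 such counts per library and brain on 3062 to 5493. In liver control replicate 2, with 88 counts, the exact 95% binomial interval ran from 23.3% to 43.8%, for counting error only. Gm45774, a gene opposite Mt2 that overlaps 432 bp of its exons, was not analysed here.

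Some members varied together across the 6 libraries of a tissue. These correlations are descriptions over libraries that share their groups. Mt1 and Mt2 had a Pearson r of 0.96 in liver and 0.96 in brain on log2 CPM, and Mt1 and Mt3 had 0.95 in brain. In liver, Mt1 had -0.95 with Slc30a1 and -0.91 with Slc30a10, and the exporters had 0.95 with each other. In brain the r of Mt1 with Slc30a1 was 0.70 and with Slc30a10 0.75. Mtf1 and Slc30a1 had 0.84 in liver and -0.99 in brain. In liver, Mtf1 also had -0.90 with Mt1, -0.81 with Mt2 and 0.91 with Slc30a10, and Mt2 had -0.89 with Slc30a1 and -0.85 with Slc30a10. In brain, Mt2 had 0.94 with Mt3 and -0.79 with Slc39a14, and Mt1 had -0.77 with Mtf1. The pairs nearest to 0 were Mtf1 and Slc39a14 (-0.10) and Mt2 and Slc39a4 (0.15) in liver, and Slc30a10 and Slc39a4 (-0.14) in brain.

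Among 9160 liver genes with a mean of at least 5 CPM, those most like the mean of Mt1 and Mt2 were Psme1, a proteasome activator subunit (r = 0.997), Gpr146 (0.99), Zkscan17 (0.99), Tmem9 (0.99) and Fkbp5, a co-chaperone of the glucocorticoid receptor (0.98). Those most opposed were Hsp90aa1, the inducible cytosolic HSP90 (-0.99), Ginm1 (-0.99), Snx19 (-0.98), Rcor1 (-0.98) and Pgm3 (-0.98). Hsp90aa1 had a log2 fold change of -1.56. Among 12038 brain genes the most alike were Rps28, a ribosomal protein (0.998), Tmsb4x, an actin-binding peptide (0.998), Pin4 (0.998), Pole4 (0.996) and Pax6 (0.99), and among the most opposed were Sik3 (-0.99), Depdc5 (-0.99), Pdlim1 (-0.99) and Npepps (-0.99). All values rest on 6 libraries that share their groups and are the extremes of the genes ranked, and shared regulation was not tested. Short genes as a whole were higher in heat stress brain, as described above, and the part of length in the brain ranking was not tested.

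Other zinc genes were tested for heat stress as well. In liver, 15 of 21 could be tested and none passed the threshold by edgeR or DESeq2. Unadjusted p-values under 0.05 were found for 2, both lower: Slc39a10, an importer that MTF1 is known to repress (5.17 ± 0.51 to 3.11 ± 0.84 CPM, log2 fold change -0.74 ± 0.27, adjusted p = 0.785 in edgeR), and Slc39a9 (51.8 ± 2.32 to 39.3 ± 3.47 CPM, -0.40 ± 0.16, adjusted p = 0.82 in edgeR). For both, no heat stress library reached a control library. Over all liver genes 5.84% had such a p-value and 5.73% lay apart downward. Next by p-value were Slc39a2, at 1.37 ± 0.53 and 0.63 ± 0.48 CPM with a log2 fold change of -1.10 ± 0.58, and Slc39a8, with -0.26 ± 0.21. With 1 library left out, Slc39a2 ran from -1.81, without heat stress replicate 2, to -0.65, without heat stress replicate 1, and was -0.77 without control replicate 2. Slc39a8 ran from -0.43, without control replicate 1, to -0.080, without control replicate 2. Without the pair of libraries with muscle transcripts the log2 fold changes were -0.62 for Slc39a10, -0.46 for Slc39a9, -1.91 for Slc39a2 and -0.42 for Slc39a8. The median of the 15 was -0.077, beside 0.011 for all genes.

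In brain, 17 could be tested and none passed by edgeR or DESeq2. Slc30a9, a mitochondrial zinc exporter, was the only one with an unadjusted p under 0.05, with 187 ± 20.2 CPM in control and 229 ± 17.4 CPM in heat stress libraries, a log2 fold change of 0.30 ± 0.13 and an adjusted p = 0.237 in edgeR, where 20.1% of all brain genes had an unadjusted p under 0.05. Slc39a3 (-0.28 ± 0.13, and -0.42 without heat stress replicate 3), Slc39a11 (0.25 ± 0.14) and Slc39a7, which releases zinc from the endoplasmic reticulum (-0.19 ± 0.10), followed. The median of the 17 was -0.023.

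**Figure D5:**
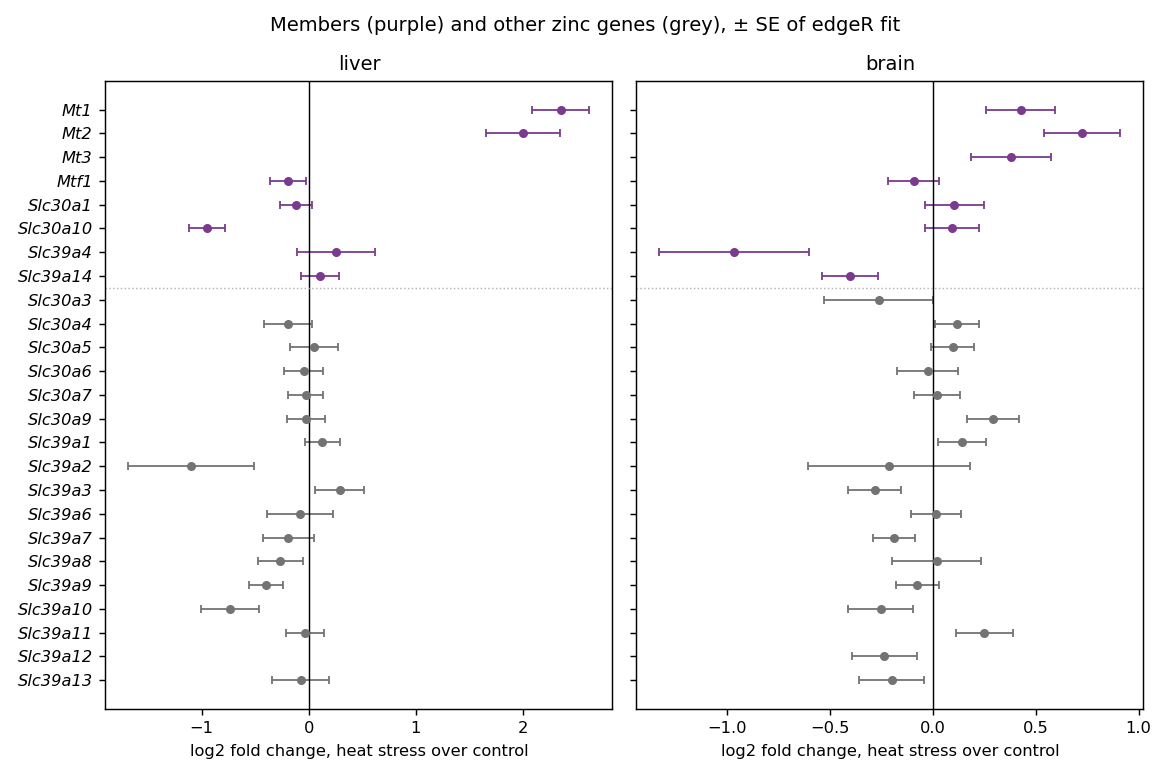
Log2 fold change of heat stress over control, ± SE of the edgeR fit, for the members (purple) and the other zinc genes that were tested (grey) in liver and brain. In liver Mt1 and Mt2 stand at 2.35 and 2.00 and Slc30a10 at -0.95, and the axes of the panels differ.

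Neighbouring pathways were counted the same way, against the same shares of all genes at an unadjusted p under 0.05, by edgeR 5.84% in liver and 20.1% in brain and by DESeq2 3.51% and 13.8%. All 9 copper handling genes were tested in both tissues and none passed by edgeR or DESeq2. In liver none had an unadjusted p under 0.05 by either tool and their log2 fold changes ran from -0.17 to 0.18, and in brain 1 had one by each tool. Of 6 further MTF1 targets, none passed in either tissue by edgeR or DESeq2, with 1 higher and 1 lower (Slc39a10, described above) at an unadjusted p under 0.05 in liver and 1 higher in brain by edgeR. Of the NRF2 targets, which answer oxidative stress, 6 in liver and 7 in brain were tested and none passed by edgeR or DESeq2. In liver none reached an unadjusted p under 0.05 by either tool, although all 6 had positive log2 fold changes with a median of 0.14, and in brain 1 did by edgeR and 0 by DESeq2.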

How the data were processed

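The authors deposited raw read counts per gene symbol, with no normalization, in 1 column per library. Their notes name Trimmomatic 0.39, HISAT2 2.2.1, featureCounts from Subread 2.0.1 and DESeq2 1.22.2 with mm10, and the methods also describe Tophat2 with HTSeq. The libraries were made with a stranded mRNA kit. The strand setting of the counting and the treatment of shared reads are not given in the sources used here. The 3 deposited tables of comparisons (fold changes and p-values) were not used, and 0 columns of single libraries were left out.

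Counts were tested in R 4.3.3 with edgeR 4.0.16, by a robust quasi-likelihood fit with TMM normalization, filterByExpr (minimum count 10, minimum total 15) and Benjamini-Hochberg adjustment over all genes tested. DESeq2 1.42.0, other scalings and filters, libraries left out and covariates were alternatives, and the fits were tested on simulated data. SE was taken as the absolute log2 fold change divided by sqrt(F). Gene models came from GENCODE M21 (GRCm38, the same assembly as mm10) and promoters from RefSeq on GRCm38.p6 for 6 of the 8 members. Members and gene lists were chosen with earlier results of these data known. All members are named, as are other zinc genes that passed or had the 4 smallest p-values under heat stress, and the 5 genes at each end of likeness, except 1 brain gene that is not reported here. Replicate numbers were checked for pairing: deviations of same-numbered control liver and control brain libraries correlated at 0.29, 0.28 and 0.11, so the replicate block was fitted too, and all 7 members that passed did so with it. Within tissues the correlations were mostly negative.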

Additional observations from a re-analysis of the deposited data

How the results depend on the processing

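In liver, where no gene passed, the number of genes that did was 41 with DESeq2, 2 with upper quartile normalization, 8 with no filter, 13 with all 12 libraries in one fit, 1 with the replicate block, 61 without both libraries with muscle transcripts, 43 with the muscle level as a covariate and 6 with the suffix 2nd as a term, a setting chosen after seeing the data. Leaving out 1 library gave 0 to 24, with 24 without control replicate 1. Members that passed numbered 2 (Mt1 and Mt2) with DESeq2, with all 12 libraries, without both muscle libraries and with the muscle covariate, and 1 (Mt1) with upper quartile normalization, no filter and the replicate block, whose numbers do not pair the libraries. Leaving out 1 library gave 0 to 1. The log2 fold change of Mt1 was 2.75 without both muscle libraries and 2.09 to 2.57 without 1 library. That of Mt2 was 1.65 to 2.29 and that of Slc30a10 -1.04 to -0.88. In brain, 10 genes and no member passed with DESeq2, and the block added none. The test of a difference between tissues, with 1 gene, gave 37 genes and 2 members (Mt1 and Slc30a10) with DESeq2, 0 genes with RLE and with the replicate block across the tissues, added after seeing the data, and 0 to 4 genes and 0 to 1 members without 1 library. Without 1 library, log2 fold changes that turned sign ran from -0.075 (without control replicate 2) to 0.60 for Slc39a4 in liver, and in brain from -0.17 to 0.0031 for Mtf1 and -0.014 to 0.20 for Slc30a1 (both turned without control replicate 3) and from -0.019 (without heat stress replicate 2) to 0.15 for Slc30a10. The causes were not tested. Slc39a4 gave no value in brain under the stricter filter. Low counts limit Mt1 and Mt2 in control liver and Slc39a4 in brain.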

Other observations

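Targets of other inducers of Mt1 and Mt2 were measured in the same liver libraries. All 14 tested targets of IL-6 and STAT3, acute phase genes for the most part, had positive log2 fold changes, with a median of 0.52 beside 0.011 for all genes, of which 6369 of 12296 were positive. By edgeR 0 passed the threshold and 4 had an unadjusted p under 0.05, beside 5.84% of all genes, and by DESeq2 2 passed, beside 0.343%. Socs3, a feedback inhibitor of STAT3 signalling, was at 4.36 ± 0.71 CPM (SD, n = 3) in control and 11.6 ± 3.92 CPM in heat stress liver, a log2 fold change of 1.41 ± 0.29 (SE) with an adjusted p = 0.28 in edgeR. Orm2, an acute phase protein, was at 10.9 ± 2.05 and 25.2 ± 9.73 CPM, a log2 fold change of 1.20 ± 0.28 with an adjusted p = 0.416 in edgeR. Socs3 and Orm2 were the only 2 of the 14 whose groups did not overlap, beside 5.38% of all genes in the upward direction. The groups of the other targets overlapped. The T cell markers described above, at 2.39 to 5.41 against 6.55 to 10.1 CPM, also did not overlap between these libraries, and their part in these values was not tested. The list was chosen with results of these libraries known, and its link to Mt1 and Mt2 was not tested.

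Glucocorticoid targets in liver were mixed. Of 8 tested, 0 passed by edgeR, 3 had an unadjusted p under 0.05 and 1 passed by DESeq2, beside the same 5.84% and 0.343% of all genes. Per1, also a clock gene, was at 15.4 ± 4.94 CPM in control and 36.3 ± 12.2 CPM in heat stress liver, a log2 fold change of 1.24 ± 0.30. Fkbp5 was at 12.2 ± 0.31 and 18.0 ± 1.61 CPM, a log2 fold change of 0.56 ± 0.17. Tsc22d3, known as GILZ, lay the other way at 77.5 ± 17.4 and 43.9 ± 3.996 CPM, a log2 fold change of -0.82 ± 0.20. Their groups did not overlap, as for 5.38% of all genes upward and 5.73% downward. The genes in this section were named after their values were seen.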
